A study of Saccharomyces cerevisiae with 4 samples.

Results

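The mating pheromone pathway of budding yeast carries a signal from the cell surface to the nucleus, and 10 of its genes are described here by their transcript levels in nps1-13 and in wild-type (WT) cells. They were chosen by name: the G protein subunit genes GPA1, STE4 and STE18, the scaffold gene STE5, the kinase genes STE11, STE7, FUS3 and KSS1, FAR1, which encodes an inhibitor of the cell cycle and an organizer of polarity, and the transcription factor gene STE12. All 10 were measured, each by 1 probe set, among the 5343 genes named on the array. Nps1, also called Sth1, is the ATPase of the chromatin-remodeling complex RSC. The nps1-13 strain, BYI-3, is listed in the study as a MATa/α diploid homozygous for nps1-13, a temperature-sensitive allele with amino-acid substitutions in the bromodomain of Nps1. It also carries his3Δ1, leu2Δ0, ura3Δ0 and met15Δ0 on both homologs. WT is BY4743, a MATa/α diploid that shares his3Δ1, leu2Δ0 and ura3Δ0 on both homologs and is heterozygous for met15Δ0 and lys2Δ0. Cells of both strains were pre-grown at 28°C in glucose medium (YPD) and then kept for 4 h in YPEG, in which ethanol and glycerol are the carbon sources. Total RNA was hybridized to Affymetrix Yeast Genome 2.0 arrays, 2 per strain. No source used here ties the arrays of a strain to separate cultures, or says whether BYI-3 is 1 clone, so the p-values measure only the spread between these arrays, which may be technical.

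In haploid cells, a pheromone bound to its receptor frees the Gβγ pair (Ste4 and Ste18) from Gα (Gpa1). Gβγ then recruits the scaffold Ste5, along which Ste11 activates Ste7, and Ste7 activates the MAP kinase Fus3. Fus3 acts on Far1, which arrests the cell cycle, and on Ste12, which turns on mating genes. Diploid MATa/α cells do not mate: a repressor made of the a1 and alpha2 proteins, which come from the MATa and MATα alleles, shuts off the haploid-specific genes. Among the members, GPA1, STE4, STE18, STE5, FUS3 and FAR1 are known as haploid-specific, whereas STE11, STE7, STE12 and KSS1 are used in diploid cells as well, where they serve filamentous growth. The results are ordered by this division of 6 and 4 genes.

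The deposited values are signal intensities on a linear scale. The array medians were 2158 and 2024 on the nps1-13 arrays, against 3051 and 2770 on the WT arrays. The arrays were thus not at a common level over the deposited probe sets. Signals are given below as deposited. Fold changes are given on the log2 scale, nps1-13 over WT, after each array was centred on its own median log2 signal, which adds 0.48 to every log2 fold change of the deposited signals. The median of all genes was then at 0.066, against -0.41 as deposited. Two-sided p-values come from limma, a linear model with a spread shared across genes of like signal, and were adjusted over the 5343 genes by the Benjamini-Hochberg method, with a threshold of 0.05. In the fit of the deposited signals the shared spread was used alone, so its p-values do not reflect the spread of each gene's own arrays. Replicate arrays gave like log2 signals over the probe sets, with r = 0.994 between the nps1-13 arrays and 0.996 between the WT arrays. Precision is limited by their small number.

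On the nps1-13 arrays, the markers of cell type did not follow the listed genotype. The a1 transcript, read by the probe set annotated HMRA1, had signals of 0.9 and 6.1 on the nps1-13 arrays, against 1599 and 1896 on the WT arrays. IME4, a gene for entry into meiosis that is kept off in haploid cells, had 12.4 and 12.4 in nps1-13 and 1749.9 and 1678 in WT. IME1, the third diploid marker, had 652 and 486 in nps1-13 and 449 and 373 in WT. The 3 measured markers of alpha cells (MF(ALPHA)1, MF(ALPHA)2 and STE3) summed to between 10541 and 10546 in nps1-13 and between 183 and 199 in WT, and all 3 were higher in nps1-13. HMLALPHA1 and MATALPHA1 were not measured under these names. The 6 markers of a cells summed to 931 on both nps1-13 arrays and to at least 1748 on the WT arrays. These are sums of deposited signals, which run lower on the nps1-13 arrays. With the arrays centred, 2 of the 6, STE2 and STE6, were lower in nps1-13 and 4 did not pass. Of those, MFA1 was at 0.36 and BAR1 at 0.31 on the log2 scale, MFA2 at -0.29 and AGA2 at -0.31. STH1 itself had 7419 and 6524 in nps1-13 against 5017 and 4373 in WT. The nps1-13 allele leaves the gene in place, so the STH1 signal cannot show which arrays carry it. The arrays labelled nps1-13 thus lack the a1 signal that a MATa/α diploid should give. Because each strain was 1 genotype, the nps1-13 allele, the mating-type state and any other difference between BYI-3 and BY4743 cannot be told apart in what follows. In RNA from whole cultures, a change in the share of cells that express a gene and a change in its RNA per cell cannot be told apart either.

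Genes that are deleted show what a probe set reads without a transcript. MET17 (MET15), an enzyme gene of sulfur assimilation deleted on both homologs in BYI-3, had signals of 17.7 and 16.0 in nps1-13. LEU2, an enzyme gene of leucine synthesis deleted in both strains by their genotypes, had 14.0 and 37.1 in WT. In nps1-13 it had 4446 and 4225, against the listed genotype. Signals as low as these were treated as not told from background, although each probe set has a background of its own.

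All 6 haploid-specific members were higher in nps1-13 than in WT, and their nps1-13 arrays lay above their WT arrays without overlap, with or without centring (49% of all genes did so when centred and 13.6% as deposited). The 4 members used in both cell types had log2 fold changes between -0.16 and 0.73, beside a median of 0.066 over all genes. Of the 10 members, 8 passed the test as higher and none as lower, the remaining pair being STE11 and KSS1. Over all genes 42.7% passed as higher and 34.6% as lower. As deposited 6 members were higher and 2 lower, against 9.41% and 64.3% of all genes, and after quantile normalization 9 were higher and 0 lower, against 36.4% and 37.7%. The ratio of the mean signals, with the arrays scaled to a common median, was above 2 for 6 of the 10 members and below 0.5 for 0, against 4.88% and 4.96% of all genes. As deposited, it was above 2 for 5 members, with STE5 at 1.52, and below 0.5 for 0, against 1.98% and 16.7% of all genes.

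**Figure D1:**
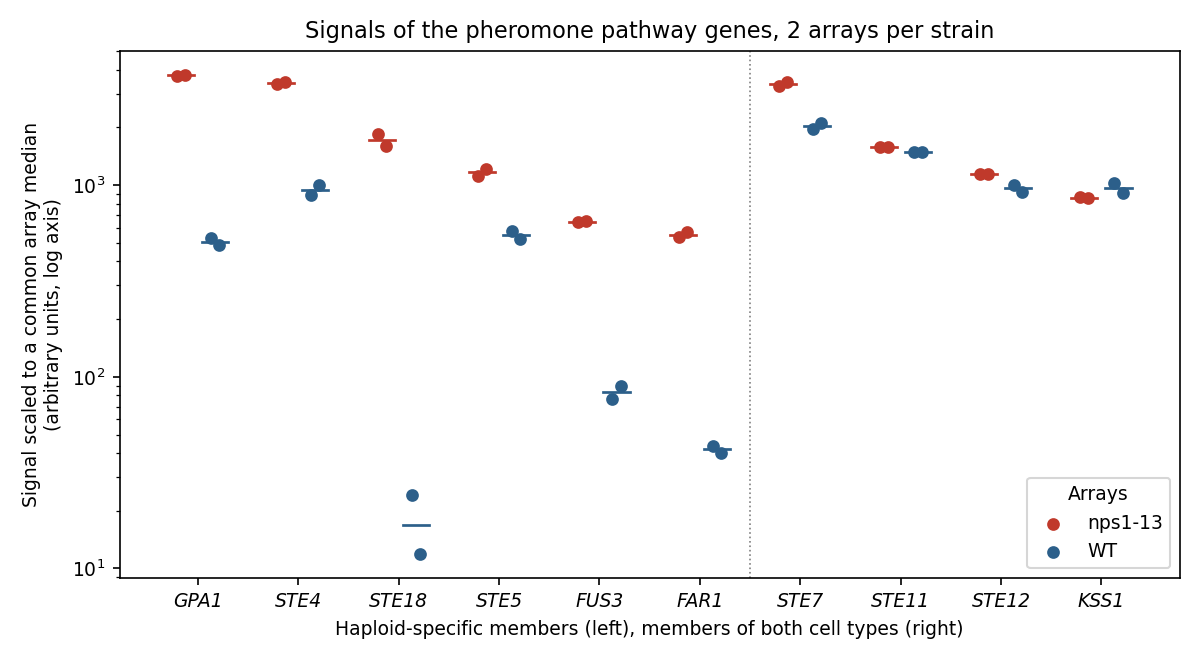
Signal of each member on each array, scaled to a common array median and drawn on a log axis in arbitrary units; each point is 1 array (2 nps1-13, left of each pair, and 2 WT) and each bar is the geometric mean. In the 6 haploid-specific genes left of the dotted line the nps1-13 points lie above the WT points, most widely in STE18, while STE11, STE12 and KSS1 lie close together in both strains.

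The 3 genes of the G protein, which acts first after the receptor, were all higher, by different amounts. GPA1, the Gα subunit that binds the receptor and holds Gβγ in check, had signals of 3264 and 3096 in nps1-13, against 653 and 548 in WT. Its log2 fold change was 2.89 (standard error 0.066, adjusted p = 1.3e-09 from limma), a ratio of mean signals of 7.38. STE4, the Gβ subunit, had 2964 and 2851 in nps1-13, against 1096 and 1131 in WT. The centred ratios between an nps1-13 array and a WT array ran from 1.75 to 1.97 on the log2 scale, and the fitted log2 fold change was 1.86 (95% interval 1.70 to 2.02, adjusted p = 2.6e-08 from limma). STE18, the small Gγ subunit that is lipid-modified and anchors Gβγ to the membrane, had 1619 and 1307 in nps1-13, against 29.8 and 13.4 in WT. The WT signals of STE18 were about as low as those read from the deleted genes, so they cannot show how large its change was. The fitted log2 fold change was 6.66 (standard error 0.28, adjusted p = 3.7e-08 from limma), with 6.05 and 7.28 as the lowest and highest of the 4 ratios between an nps1-13 array and a WT array. It was 7.17 without WT replicate 1, which had the higher WT signal, and 6.16 without WT replicate 2. With 32 added to every signal it was 5.28, and with signals under 100 set to 100 it was 4.10. By rank over the 5343 genes, GPA1 was number 22 and STE4 number 61 from the largest increase.

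STE5 encodes the scaffold on which the kinases of the cascade assemble. Its signals were 979 and 1001 in nps1-13, against 709.6 and 590.1 in WT, closer as a ratio than in any other haploid-specific member. The log2 fold change of STE5 was 1.09 (standard error 0.085, adjusted p = 2.0e-06 from limma), at rank 217, and as deposited it was 0.61 (adjusted p = 1.4e-05 from limma). FUS3 encodes the MAP kinase of the mating response. It had 559.6 and 536 in nps1-13, against 95 and 101 in WT. The log2 fold change of FUS3 was 2.96, at rank 19, with a standard error of 0.13 and an adjusted p of 5.9e-08 by limma. FAR1 encodes the protein that arrests the cycle in G1 and steers growth toward the mating partner. It had 469 and 467 in nps1-13, against 54.2 and 45.1 in WT. Its log2 fold change was 3.72 (95% interval 3.38 to 4.06, adjusted p = 3.4e-08 from limma). The WT means of FUS3 (97.8 ± 3.96, SD, n = 2) and FAR1 (49.7 ± 6.44, SD, n = 2) were both under 100, where background makes up an unknown part of the signal. With signals under 100 set to 100 the log2 fold changes were 2.69 for FUS3 and 2.46 for FAR1, both still past the threshold.

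The kinase genes that precede FUS3 in the cascade had smaller log2 fold changes. STE7, the MAP kinase kinase, had 2882 and 2849 in nps1-13, against 2443 and 2364 in WT, so that its arrays did not overlap even without centring. The log2 fold change of STE7 was 0.73 (standard error 0.056, adjusted p = 1.8e-06 from limma), at rank 528, whereas as deposited it was 0.25 and did not pass (adjusted p = 0.058 from limma). STE11, the MAP kinase kinase kinase, had 1382 and 1296 in nps1-13 and 1842 and 1671 in WT. This difference runs in the same direction as that of the array medians: the log2 fold change was 0.086 with the arrays centred (95% interval -0.046 to 0.22, adjusted p = 0.20 from limma) and -0.39 as deposited, where it passed as lower. After quantile normalization it was 0.19 and passed as higher (adjusted p = 0.016 from limma), so the direction for STE11 depends on how the arrays are scaled.

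STE12 and KSS1 close the list. STE12, the transcription factor at the end of the pathway, had 1006 and 939 in nps1-13, against 1245 and 1033 in WT. It was at 0.25 on the log2 scale when centred (adjusted p = 0.010 from limma), at 0.19 without WT replicate 2 (adjusted p = 0.11), and at -0.22 as deposited (adjusted p = 0.12). KSS1 encodes the MAP kinase of filamentous growth, which can also take part in mating. It had 756 and 706 in nps1-13, against 1270.3 and 1019 in WT, with a log2 fold change of -0.16 when centred (95% interval -0.35 to 0.021, adjusted p = 0.094 from limma), of -0.64 as deposited, where it passed as lower, and of 0.020 after quantile normalization. For STE12 and KSS1, as for STE11, the sign depends on the scaling of the arrays, and the centred change is under 0.5 in size.

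**Figure D2:**
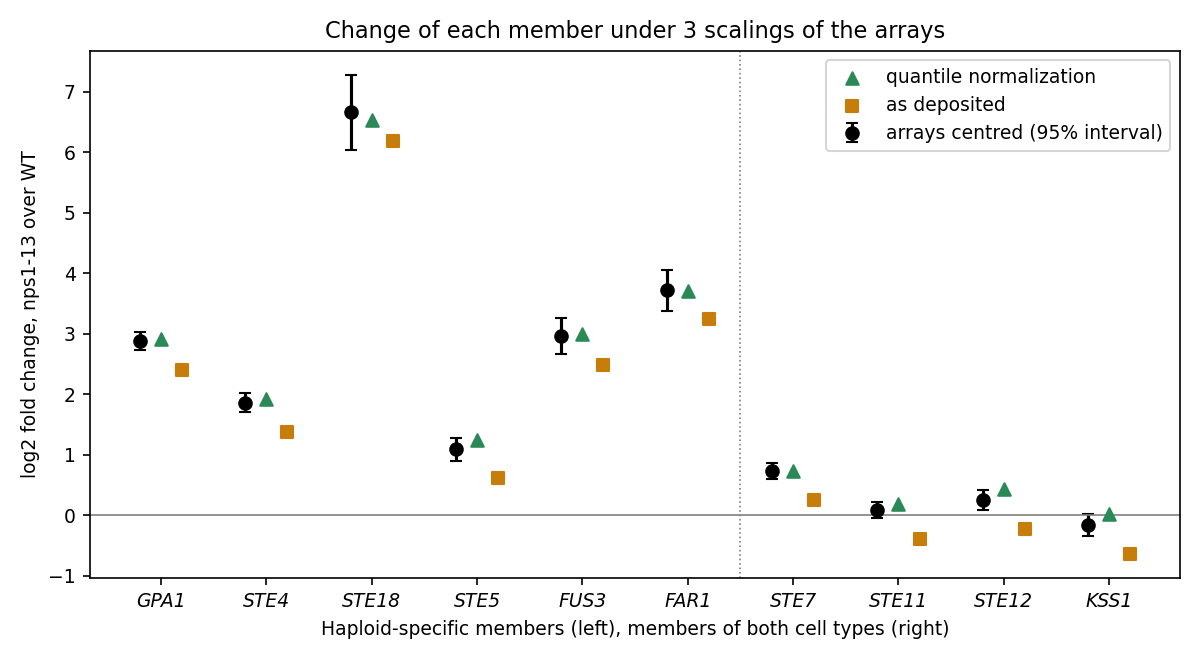
Log2 fold change, nps1-13 over WT, of each member under 3 scalings of the arrays: each array centred on its median (circles, with the 95% interval from limma, n = 2 arrays per strain), quantile normalization (triangles) and the deposited signals (squares). The 6 haploid-specific genes left of the dotted line are above 0 under every scaling, with STE5 lowest at 0.61 as deposited, and STE11, STE12 and KSS1 change sign among the scalings.

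Ordered by their centred log2 fold changes, the members ran from STE18 through FAR1, FUS3, GPA1, STE4, STE5, STE7, STE12 and STE11 to KSS1. FUS3 and GPA1 differed by 0.078 (combined standard error 0.15) and STE12 and STE11 by 0.17 (combined standard error 0.094), so neither pair of neighbours was apart by more than 2 standard errors. The other 7 pairs of neighbours were, but the places of STE18 and FAR1 rest on WT signals near background. The combined standard errors treat the 2 genes of a pair as independent, although both were read on the same arrays. With signals under 100 set to 100, FAR1 at 2.46 lay below FUS3 at 2.69 and GPA1 at 2.89. The differences between members do not depend on the scaling of whole arrays by a factor, since such a factor shifts every gene alike. For the 2 MAP kinase genes, the log2 fold change of FUS3 exceeded that of KSS1 by 3.13 (combined standard error 0.16). The log2 ratio of the FUS3 signal to the KSS1 signal was -0.43 and -0.40 on the nps1-13 arrays, against -3.74 and -3.34 on the WT arrays. It depends on the 2 probe sets and is no ratio of transcripts, but its shift between the strains is common to all 4 pairs of arrays. The mean FUS3 signal in WT was under 100, so background limits what the size of this shift and of the 3.13 can show. Within the G protein, the change of GPA1 minus that of STE4 was 1.03 (combined standard error 0.096), and no such difference is given for STE18, whose WT signals lay near background.

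The median log2 fold change was 2.92 over the 6 haploid-specific members and 0.17 over the 4 members of both cell types, beside 0.066 over all genes. On each array, the median log2 signal of the 6 genes was set against the median of the 4. The difference was 0.095 and 0.052 on the nps1-13 arrays, and -2.62 and -2.48 on the WT arrays. On the WT arrays the median of the 6 lies between FUS3 and GPA1. Background makes up an unknown part of the FUS3 signal there, so the size of the difference is uncertain. These are descriptions: the division is textbook knowledge, but the members were chosen with results of these arrays known.

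**Figure D3:**
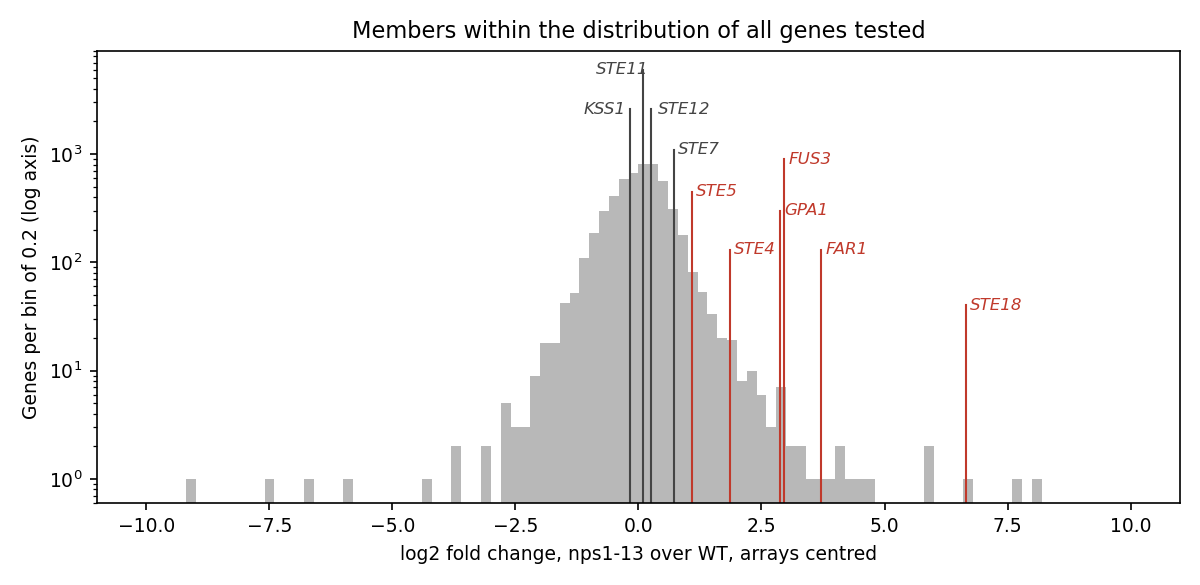
Distribution of the log2 fold changes, nps1-13 over WT with the arrays centred, of all 5343 genes (grey, number of genes per bin of 0.2 on a log axis), with a line at the value of each member. The haploid-specific members (red) lie from 1.09 for STE5 to 6.66 for STE18, in the upper tail, and STE11, STE12 and KSS1 lie within the main body.

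Around the members, further genes of the pathway were taken from lists by role. The pheromones and receptors differed in direction: of 6 genes, 3 were higher, 1 was lower and 2 did not pass the test. The shares of all genes were 42.7% higher and 34.6% lower. MF(ALPHA)1, the main gene for alpha-factor, had 6109 and 6228 in nps1-13 and 45.0 and 41.6 in WT, and STE3, the receptor for a-factor, had 4113 and 4030 in nps1-13 and 86.0 and 102 in WT. MF(ALPHA)2, the minor alpha-factor gene, was at 3.04 on the log2 scale, and STE2, the receptor for alpha-factor, at -1.05. The genes higher here are those of alpha cells and the lower one is that of a cells.

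Haploid-specific genes outside the pathway were higher as well. All 5 listed passed the test, beside 42.7% of all genes, with a median log2 fold change of 1.69. Their arrays did not overlap, which 49% of all genes shared in that direction. NEJ1, a regulator of end joining in DNA repair, had 1153 and 1108 in nps1-13, against 294 and 297 in WT. The log2 fold change of NEJ1 was 2.41, with a standard error of 0.092 and an adjusted p of 2.7e-08 by limma. HO, the endonuclease of mating-type switching, had 144 and 134 in nps1-13, against 63.7 and 40.3 in WT. The WT signals of HO were under 100, where background makes up an unknown part, so the size of its change is uncertain. AXL1, which acts in a-factor processing and in bud site choice, RDH54, a recombination factor, and RME1, a repressor of entry into meiosis, were at 1.69, 1.62 and 1.5. As deposited all 5 stayed above 2-fold by the ratio of mean signals, beside 1.98% of all genes.

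Of the 7 shared upstream activators, 1 was higher and 2 were lower (0 and 7 as deposited). The shares of all genes, beside this list and the next ones, were 42.7% higher and 34.6% lower when centred. As deposited they were 9.41% and 64.3%. CDC24, the exchange factor of Cdc42, was at 0.16, STE20, the kinase that activates Ste11, at -0.15 and BEM1, a polarity scaffold, at 0.11, which did not pass (adjusted p = 0.079 from limma). Of the 7 negative regulators, 3 were higher and 2 lower (1 and 3 as deposited), and the 2 inhibitors of Ste12 differed in sign. DIG1 had 4318 and 4200.1 in nps1-13, against 3513 and 3178 in WT (log2 fold change 0.83), and DIG2 had 919 and 965 in nps1-13, against 2080.1 and 1778 in WT (log2 fold change -0.55). PTP2, a phosphatase of MAP kinases, was at 0.49, and SST2, which speeds GTP hydrolysis by Gpa1 and is itself induced by pheromone, was at 0.38. The values of CDC24, BEM1 and SST2 are below 0 as deposited. Of 3 partner transcription factors, TEC1, which joins Ste12 on genes of filamentous growth, was at 0.76, MCM1, a factor of all cell types, at 0.15 (-0.33 as deposited, where it passed as lower) and KAR4, which joins Ste12 on genes of nuclear fusion, at -1.19. KAR4 had 319 and 372 in nps1-13, against 1168 and 1029 in WT.

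The pheromone targets of Ste12 gave calls in both directions. Of 14 such genes, with a median log2 fold change of 0.19, 6 were higher, 3 were lower and 5 did not pass. Over all genes, 42.7% were higher and 34.6% lower. As deposited 3 of the 14 were higher and 6 lower, beside 9.41% and 64.3% of all genes. The number higher was 3 with signals under 100 set to 100, and 3 with only genes of a mean signal of at least 100. The 3 genes over 2-fold higher, beside 4.88% of all genes, were PRM6 at 1.51, FUS1 at 1.4 and PRM2 at 1.34. Their signals were low in both strains. As deposited 1 of the 14, PRM6, was over 2-fold higher, and 2, KAR3 and CIK1, were over 2-fold lower. FUS1, a membrane protein of cell fusion and a usual reporter of the pathway, had 224 and 206 in nps1-13, against 121 and 106 in WT. PRM6 reached no more than 48.7 and PRM2 no more than 72.5 on any array, where background is not told from transcript. PRM3, a protein of nuclear fusion, was at 0.89 with signals under 100 on all arrays. Among the lower genes were the motor gene KAR3 at -0.77 and CIK1, its partner in nuclear fusion and mitosis, at -0.76.

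**Figure D4:**
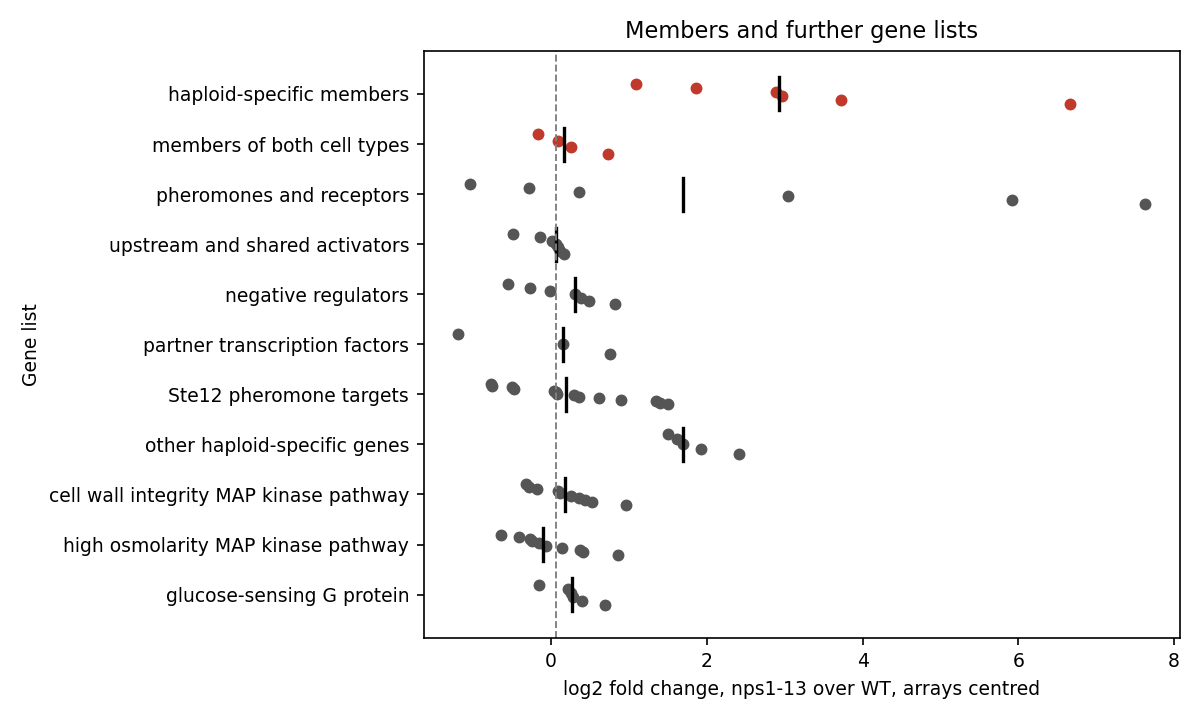
Log2 fold change, nps1-13 over WT with the arrays centred, of each gene (points) in the members (red) and in 9 further lists (grey); the vertical bars are list medians and the dashed line is the median of all genes, 0.066. The haploid-specific members (median 2.92) and the other haploid-specific genes (median 1.69) lie wholly to the right of 1, and the pheromones and receptors spread from -1.05 to 7.63.

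Other signalling pathways with similar parts are given for scale. In the MAP kinase pathway of cell wall integrity, 5 of 10 genes were higher and 3 lower, near the 42.7% and 34.6% of all genes, and the log2 fold changes ran from -0.32 for the kinase gene MKK2 to 0.96 for SLG1 (WSC1), a cell wall sensor, with PKC1, the protein kinase C of yeast, at 0.53, BCK1, its kinase kinase kinase, at 0.44 and the transcription factor gene RLM1 at 0.36. In the high osmolarity pathway, 4 of 10 were higher and 5 lower. YPD1, a phosphorelay protein, was highest at 0.86 and MSB2, a membrane sensor, lowest at -0.64, with PBS2, its MAP kinase kinase, at 0.41 and the membrane anchor OPY2 at -0.41. Of the 6 genes of the glucose-sensing G protein, 5 were higher and 1 lower, with RGS2, its GTPase activator, at 0.69, GPA2, its Gα subunit, at 0.39, the receptor GPR1 at 0.29 and ASC1, a Gβ-like protein, at 0.25. No gene of these 3 lists changed over 2-fold with the arrays at a common median, beside 4.88% higher and 4.96% lower over all genes. As deposited, where all values are lower by 0.48, 1 of 10 in the cell wall pathway passed as higher and 5 as lower, 1 of 10 in the high osmolarity pathway as higher and 7 as lower, and 0 of 6 in the glucose-sensing list as higher and 3 as lower, and MSB2 was over 2-fold lower. BCK1, RLM1, PBS2, GPA2, GPR1 and ASC1 are below 0 on that scale. Of all genes, 9.41% passed as higher and 64.3% as lower there, and 16.7% were over 2-fold lower.

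The genes most like the haploid-specific members over the 4 arrays were found by the distance between log2 profiles, each gene taken relative to its own mean, with the median profile of the 6 genes as the target. The 5 nearest of the genes outside the members were RTA1 at a distance of 0.11, AAD4 at 0.18, YMR315W-A at 0.20, PHO92 at 0.30 and SPR28 at 0.31. Their log2 fold changes ran from 2.79 to 3.19. RTA1, YMR315W-A and SPR28 had WT signals under 100, where background makes up an unknown part, so the sizes of their changes are uncertain. AAD4, of the aryl-alcohol dehydrogenase family, had 2309 and 1865 in nps1-13, against 406 and 364 in WT, and SPR28, a septin of sporulation, had 235 and 180.3 in nps1-13, against 39.2 and 43.6 in WT. With 4 arrays in 2 strains, this likeness says little beyond a like difference between the strains.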

How the data were processed

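By the methods, the authors computed the deposited intensity of each probe set in the Affymetrix software GCOS, with its defaults and a global scaling to 1 target; the submitters' processing notes name GCOS too. The file holds 5558 probe sets, with no detection calls. Names came from the platform annotation, matched by gene ID to RefSeq (R64): 5345 probe sets were named and 213 were not, and for 2 genes with several probe sets the brightest was kept. A sequence table was not used here. Each array was centred on its median log2 signal, since the trimmed means (2% left out at each end) differed between arrays, at 3315 and 3156 in nps1-13 and 4283 and 3939 in WT. Genes were fitted with limma 3.58.1 in R 4.3.3 (lmFit and eBayes with a trend), strain as the only term. The fit was also run on simulated arrays, which held far fewer changed genes than were called here. Below a signal of 100 lay 199 and 213 probe sets on the nps1-13 arrays, and 167 and 175 on the WT arrays. Tables and figures were made in Python 3.11.15 with pandas 2.3.3 and matplotlib 3.10.9. The members and lists were chosen with earlier results of these data known. All members were named, with the 4 largest changes of each list (all 3 of the partner factors; 1 activator is not reported here) and the 5 genes nearest in profile; cell type markers, deleted genes, STH1 and, chosen after their values were seen, flanking genes were named too. Alternatives were the deposited signals, quantile normalization, a common trimmed mean, 32 added to each signal, a floor of 100, a mean signal of at least 100, no trend, the replicate number as a block, and leaving out each array.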

Additional observations from a re-analysis of the deposited data

How the results depend on the processing

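Under 12 alternatives (8 settings and 4 fits without an array), the 6 haploid-specific members kept their direction in all 72 values. The ranges were 2.41 to 2.94 for GPA1, 1.38 to 1.95 for STE4 and 4.10 to 7.17 for STE18. They were 0.61 to 1.24 for STE5, 2.49 to 3.07 for FUS3 and 2.46 to 3.78 for FAR1. Under the 8 settings these members also stayed past the threshold. The replicate block, the fit without a trend and the filter on mean signal leave their log2 fold changes unchanged, so these settings cannot test direction. Leaving out 1 array could not reverse a direction either, because the centred arrays of these members did not overlap between the strains. The filter kept STE18, FUS3 and FAR1 although their WT means were under 100, so it does not test their low WT signals. As deposited, STE7 was at 0.25 and did not pass, STE11 at -0.39 and KSS1 at -0.64 passed as lower, and STE12 was at -0.22; 2 members were then lower, and the medians were 2.45 for the haploid-specific members and -0.31 for the others. All genes numbered 503 higher and 3435 lower there, and the 68 genes of the further lists 15 and 35, against 2283 and 1850 and 34 and 18 when centred. The split of calls followed the scaling: higher calls were 1946 and lower 2016 after quantile normalization, and 1765 and 2307 with a common trimmed mean. After quantile normalization STE11 passed at 0.19, KSS1 was at 0.020 and the median of the members of both cell types was 0.31. With a common trimmed mean STE11 was at -0.046, STE12 at 0.12 did not pass, KSS1 at -0.29 passed as the 1 lower member, and the medians were 2.79 and 0.038. The haploid-specific median was 2.72 with 32 added to each signal and 2.58 with a floor of 100. Without 1 array, STE12 ran from 0.19 to 0.32, not passing without WT replicate 2. The replicate numbers are shared by the strains but do not pair the arrays by any source. The differences between replicates 1 and 2 of the strains correlated at -0.075 across probe sets. With the replicate block, 8 members were higher and 0 lower, and 2249 genes were higher and 1799 lower; it changed no call of a member. Signals under 100 limit the size of the changes of STE18, FUS3 and FAR1.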

Other observations

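The genes next to the haploid-specific members on the chromosomes were looked at as well. The 6 members lie on 5 chromosomes, and of their 12 immediate neighbours among RefSeq protein-coding genes 10 were measured, a set looked up after the members' values were seen. With the arrays centred, 4 of the 10 were higher and 1 was lower, beside 42.7% and 34.6% of all genes. Over 2-fold higher were 0 of the 10, beside 4.88% of all genes, and 10 genes are too few to tell 0 from that share. Their log2 fold changes ran from -0.18 to 0.84 with a median of 0.093. The highest was SSY5, an amino acid sensor protease encoded beside FAR1, at 0.84. GPA1 lies between NEM1, at 0.092, and TIM10, at 0.21, and FUS3 between PEP1, at 0.082, and ACH1, at -0.024.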
